A study of Mus musculus with 30 samples.

Results

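The epidermal growth factor (EGF) receptor system was followed through 10 genes in primary mouse tail-tendon fibroblasts. The set holds 2 inhibitors of the receptors (Errfi1 and Lrig1), 3 receptors (Egfr, Erbb2 and Erbb3) and 5 ligands (Hbegf, Ereg, Areg, Tgfa and Btc). Each gene was found by its symbol in both RNA tables, so the set makes up 10 of the 35973 genes of the blebbistatin table, and chromatin sites were taken where the authors' annotation names 1 of the 10 genes, which gave 15 of 16367 listed sites. The set was selected on Errfi1, whose RNA change with Y27632 singled it out, so the values of Errfi1 are given as a description without a test, and the other 9 genes belong to it by function. The whole set was proposed with these RNA results in view, so the adjusted p-values below, which come from fits over all genes, are no independent support for the choice.

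The fibroblasts were kept in medium with 0.1% serum and given 10 µM blebbistatin, 30 µM Y27632 or DMSO as the control. Y27632 acts on kinases, whereas blebbistatin inhibits the motor activity of non-muscle myosin II. RNA was sequenced in 3 libraries per treatment, 9 in all, and accessible chromatin by ATAC in 9 libraries of the same treatments. A further 12 genomic DNA libraries had neither drug, blebbistatin alone, doxycycline alone at 10 ng/mL, or both, 3 libraries each, and the labels state neither what doxycycline induced nor the assay of these 12 in particular. All 30 libraries are labelled wildtype, and nothing in the labels says whether replicates came from separate animals or cultures, so p-values measure the spread between these libraries, which may be technical.

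EGF family ligands are made as membrane-anchored precursors that proteases such as Adam17 release. A bound receptor pairs with another receptor of the family and starts the Ras-ERK cascade, and the cascade in turn switches on genes for its own inhibitors. Errfi1 (also called Mig6) is one of these inhibitors and binds the kinase domain of activated receptors, whereas Lrig1 is a membrane protein that promotes receptor breakdown.

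Libraries held 23375386 to 37061737 reads in genes. The 9 tendon fibroblast markers were all above 1 CPM (counts scaled to a common library total, TMM-adjusted) on average in each group. Their summed levels were 21498 to 23119 CPM with DMSO, 19796 to 21963 with blebbistatin and 22073 to 23329 with Y27632. Col1a1 (8501 to 11073 CPM over the 9 libraries) and Col1a2 (7864 to 9369 CPM) made up most of these sums. Scx was at 2.07 to 3.18 CPM. Of the 9 markers, 4 were higher and 4 lower with blebbistatin at a limma adjusted p under 0.05. With Y27632, 4 were higher and 0 lower. None of the 6 epithelial markers reached a mean of 1 CPM in any group, and their summed level was at most 0.796 CPM in every library. The 4 macrophage and blood cell markers (Ptprc, Cd68, Adgre1 and Csf1r) were detected in all groups, summing to 47.5 to 54.5 CPM with DMSO, 67.0 to 79.0 with blebbistatin and 65.0 to 76.0 with Y27632. All 4 had a limma adjusted p under 0.05 and were higher in both treatments. Of all genes tested, 26.1% were called higher and 26.9% lower with blebbistatin, and 18.1% higher and 17.8% lower with Y27632. The summed level of the 3 endothelial markers was 3.08 to 3.57 CPM with DMSO, 3.95 to 4.40 with blebbistatin and 3.92 to 4.43 with Y27632, and that of the 3 cartilage markers 5.16 to 6.24, 7.89 to 8.68 and 8.15 to 8.37 CPM. The 3 Schwann cell markers summed to 4.38 to 5.23 CPM with DMSO, 5.76 to 6.21 with blebbistatin and 5.15 to 6.23 with Y27632. The part of these markers in the results below was not tested. In such bulk libraries, fewer cells of a type and less RNA per cell cannot be told apart.

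The promoters of Errfi1 and Areg are shown first because both hold the same palindromic motif. RefSeq start sites (GRCm38.p6, the assembly of build mm10) were searched for 7 of the 10 genes. These gave 8 windows in all, each the 250 bases before the start. The windows were searched on both strands for the full cyclic AMP response element (CRE) TGACGTCA, the AP-1 motif TGANTCA, the TEAD motif GGAATG and the CArG box bound by SRF. The CRE was found in the window of the downstream of the 2 Errfi1 start sites, at bases 51 to 44 before the start, and in the Areg window, at bases 61 to 54. It occurs in 1.55% of the 32851 windows of all genes. The upstream Errfi1 start site has no CRE in its window but a TEAD motif on the opposite strand, at bases 65 to 60 before the start, a motif held by 12.6% of all windows. All 3 windows are on the plus strand, at chr4:150854820-150855069 for the downstream Errfi1 start, chr5:91139349-91139598 for Areg and chr4:150853546-150853795 for the upstream Errfi1 start. Capitals mark the CRE in the first 2 sequences and the TEAD motif, read on the opposite strand, in the third.
Errfi1, downstream start: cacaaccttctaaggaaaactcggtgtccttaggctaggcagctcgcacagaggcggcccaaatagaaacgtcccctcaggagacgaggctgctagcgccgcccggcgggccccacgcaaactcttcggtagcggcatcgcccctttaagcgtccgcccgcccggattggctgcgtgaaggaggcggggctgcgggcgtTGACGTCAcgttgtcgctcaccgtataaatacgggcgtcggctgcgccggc
Areg: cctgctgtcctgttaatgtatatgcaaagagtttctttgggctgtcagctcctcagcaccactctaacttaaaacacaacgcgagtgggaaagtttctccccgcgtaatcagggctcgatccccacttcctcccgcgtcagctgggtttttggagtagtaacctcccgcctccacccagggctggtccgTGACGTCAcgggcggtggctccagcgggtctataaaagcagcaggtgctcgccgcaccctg
Errfi1, upstream start: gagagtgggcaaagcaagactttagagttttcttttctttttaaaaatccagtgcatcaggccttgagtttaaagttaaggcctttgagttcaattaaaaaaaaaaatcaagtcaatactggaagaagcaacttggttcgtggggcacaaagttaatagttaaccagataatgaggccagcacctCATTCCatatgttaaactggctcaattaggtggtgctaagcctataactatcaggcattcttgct

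Among the windows of the other 5 genes (Egfr, Erbb2, Tgfa, Btc and Lrig1), that of Erbb2 held a TEAD motif, at bases 88 to 83 before the start, and none held a CRE. No AP-1 motif or CArG box was found in any of the 8 windows, against 6.75% and 1.47% of all windows. These matches describe the letters of the windows and are not measured binding sites. Hbegf, which lies on chromosome 18, was left out of this search, so its promoter was not read, and Ereg and Erbb3 had no window.

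Errfi1 was several times as abundant with Y27632 as with DMSO and slightly more abundant with blebbistatin. Its level was 42.9, 35.8 and 38.4 CPM in the 3 DMSO libraries, 49.9, 56.9 and 62.9 CPM with blebbistatin, and 337.0, 242.2 and 355.0 CPM with Y27632. The 3 groups did not overlap, and every Y27632 library lay far above every library of the other groups. The log2 change against DMSO was 2.98 with an SE of 0.110 for Y27632, a 7.88-fold difference, and 0.53 with an SE of 0.082 for blebbistatin, a 1.44-fold difference. With all 9 libraries in 1 fit, Errfi1 was 5.45-fold higher with Y27632 than with blebbistatin. Levels per library are TMM-scaled CPM from reads recovered from the deposited values, whereas log2 changes come from limma on log2(normalised count + 1) of each deposited table.

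The membrane inhibitor Lrig1 moved much less. Lrig1 stood at 69.8, 68.4 and 68.4 CPM with DMSO, at 86.8, 86.8 and 78.9 CPM with blebbistatin, and at 83.7, 76.4 and 80.4 CPM with Y27632. All libraries of both treatments were above all DMSO libraries, while the treatments overlapped each other. Lrig1 rose by 0.28 on the log2 scale with blebbistatin (SE 0.042, limma adjusted p = 1.13e-04) and by 0.22 with Y27632 (SE 0.040, limma adjusted p = 9.43e-04). The direct difference between the treatments, 0.08 on the log2 scale, did not pass the test (edgeR quasi-likelihood adjusted p = 0.133).

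**Figure D1:**
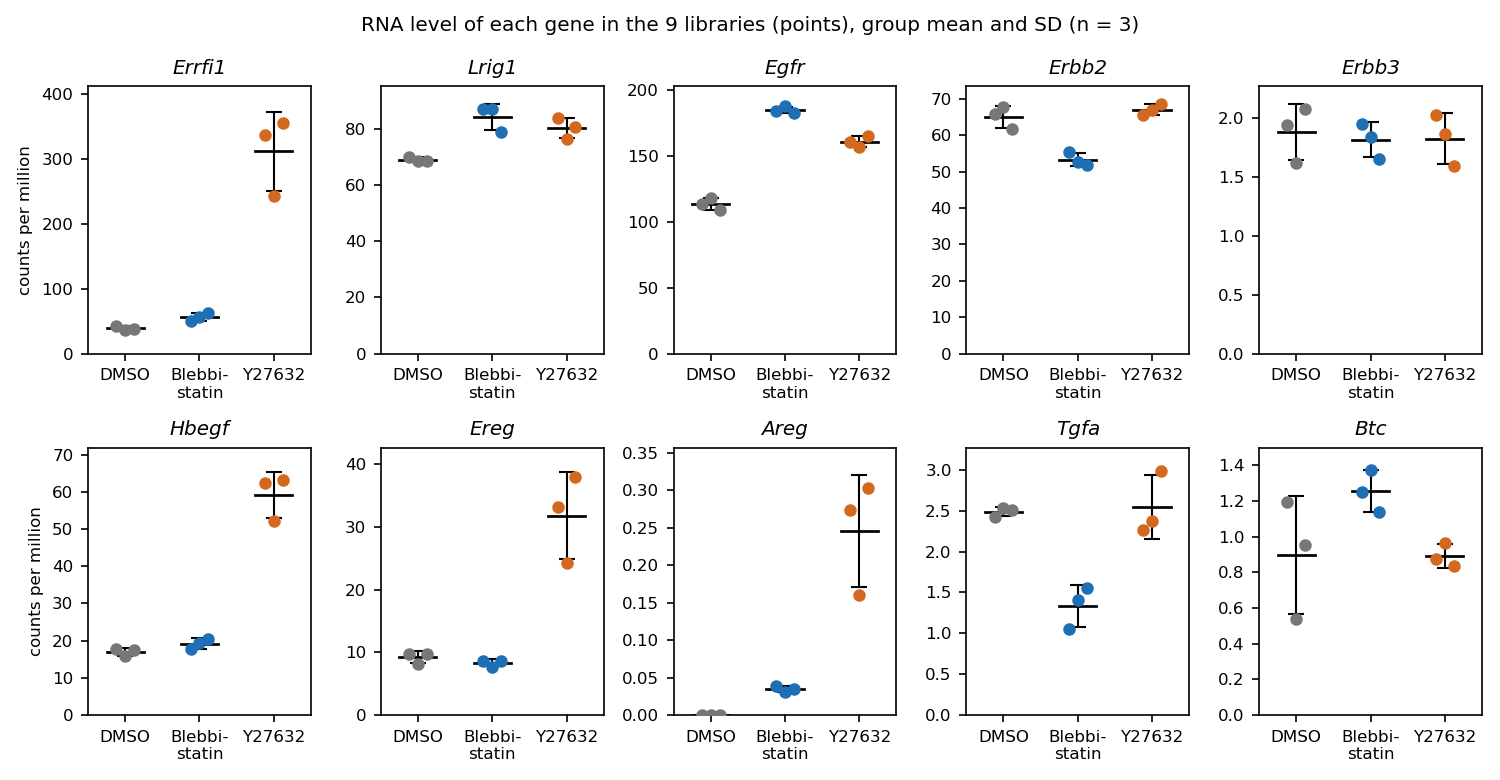
RNA level (CPM, y axis from 0, a separate scale for each gene) of the 10 genes in the 9 libraries, by treatment, with the group mean (wide line) and SD (error bar, n = 3). The Y27632 libraries of Errfi1, Hbegf, Ereg and Areg lie above all other libraries, Egfr is highest with blebbistatin, and Tgfa and Erbb2 are lowest with blebbistatin.

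The main EGF receptor gene, Egfr, rose with both inhibitors and was highest with blebbistatin. Egfr was at 114.0, 118.1 and 109.0 CPM with DMSO, at 184.7, 187.9 and 182.8 CPM with blebbistatin and at 161.1, 156.9 and 165.0 CPM with Y27632. The 3 groups did not overlap. Egfr rose by 0.70 on the log2 scale with blebbistatin (SE 0.036, a 62.7% increase, limma adjusted p = 8.65e-09) and by 0.50 with Y27632 (SE 0.037, a 41.5% increase, limma adjusted p = 4.57e-07). Egfr was higher with blebbistatin than with Y27632 by 0.21 on the log2 scale (edgeR adjusted p = 9.79e-05).

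Erbb2, the family member without a known ligand that serves as a pairing partner, fell with blebbistatin and was also lower with blebbistatin than with Y27632. Its levels were 65.7, 67.6 and 61.7 CPM with DMSO, 55.3, 52.7 and 51.7 CPM with blebbistatin and 65.6, 66.9 and 68.5 CPM with Y27632. All blebbistatin libraries were below all others, and the Y27632 and DMSO libraries overlapped. Erbb2 fell by 0.29 on the log2 scale with blebbistatin (SE 0.046, limma adjusted p = 2.09e-04). With Y27632 the change was 0.04, with a 95% interval of -0.05 to 0.14 (limma adjusted p = 0.466), and the difference between blebbistatin and Y27632 was -0.32 (edgeR adjusted p = 2.08e-05).

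Erbb3, a neuregulin receptor with little kinase activity of its own, was low, at 1.59 to 2.08 CPM over the 9 libraries. Its groups overlapped, with log2 changes of -0.05 for blebbistatin (95% interval -0.42 to 0.33) and -0.04 for Y27632 (-0.42 to 0.33). Neither passed the test (limma adjusted p = 0.844 and 0.876).

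Among the ligands, Hbegf and Ereg rose with Y27632 by similar amounts and did not pass the test with blebbistatin. Hbegf encodes heparin-binding EGF-like growth factor, and was at 17.7, 15.8 and 17.6 CPM with DMSO, 17.8, 19.3 and 20.5 CPM with blebbistatin and 62.3, 52.0 and 63.2 CPM with Y27632. Its Y27632 libraries were all well above the rest, and its blebbistatin libraries all lay just above its DMSO libraries. Hbegf rose by 1.79 on the log2 scale with Y27632 (SE 0.073, 3.46-fold, limma adjusted p = 3.10e-09). With blebbistatin its change was 0.17 (SE 0.073, limma adjusted p = 0.0677), and it was 3.05-fold higher with Y27632 than with blebbistatin (edgeR adjusted p = 5.54e-10).

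Ereg encodes epiregulin, a ligand of the EGF receptor and Erbb4. It was at 9.79, 8.17 and 9.79 CPM with DMSO, 8.67, 7.71 and 8.59 CPM with blebbistatin and 33.1, 24.3 and 37.9 CPM with Y27632. The Y27632 libraries stood above all others, and the DMSO and blebbistatin libraries overlapped. Ereg rose by 1.75 on the log2 scale with Y27632 (SE 0.130, 3.37-fold, limma adjusted p = 4.18e-07). Its change with blebbistatin was -0.15 (95% interval -0.36 to 0.06, limma adjusted p = 0.219), and the direct difference was 3.79-fold in favour of Y27632 (edgeR adjusted p = 3.00e-08).

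Areg, which encodes amphiregulin, was too low for the main tests. It had 0 reads in each DMSO library, 1 read in each blebbistatin library, and 10, 5 and 8 reads in the Y27632 libraries. The 23 reads with Y27632 (95% Poisson interval 14.6 to 34.5) were 6.05-fold a floor of 3 reads over the DMSO group, scaled to library reads. This is a point value and no lower limit, since the upper 95% Poisson limit of the DMSO group was 3.69 reads. The ratio of Y27632 to blebbistatin was 6.71, with an exact 95% interval of 2.03 to 34.9. These intervals cover counting error only, and reads without molecular identifiers are not independent molecules.

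Tgfa, the transforming growth factor alpha gene, was the ligand that fell with blebbistatin. Its levels were 2.43, 2.53 and 2.51 CPM with DMSO, 1.05, 1.40 and 1.55 CPM with blebbistatin and 2.27, 2.38 and 2.99 CPM with Y27632. All blebbistatin libraries were below all others, and the DMSO and Y27632 libraries overlapped. Tgfa fell by 0.90 on the log2 scale with blebbistatin (SE 0.183, limma adjusted p = 0.00128), on 117 reads in all against 184 with DMSO. With Y27632 its change was 0.02 (95% interval -0.31 to 0.35, limma adjusted p = 0.931), and blebbistatin and Y27632 differed by -0.90 (edgeR adjusted p = 7.03e-04).

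Btc, the betacellulin gene, was at 1.195, 0.539 and 0.953 CPM with DMSO, 1.25, 1.37 and 1.14 CPM with blebbistatin and 0.875, 0.964 and 0.833 CPM with Y27632. The blebbistatin and DMSO libraries overlapped, and 1 DMSO library was the lowest of all 9. The log2 changes were 0.53 with blebbistatin (95% interval -0.08 to 1.14, limma adjusted p = 0.130) and 0.06 with Y27632 (-0.56 to 0.67, limma adjusted p = 0.893).

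**Figure D2:**
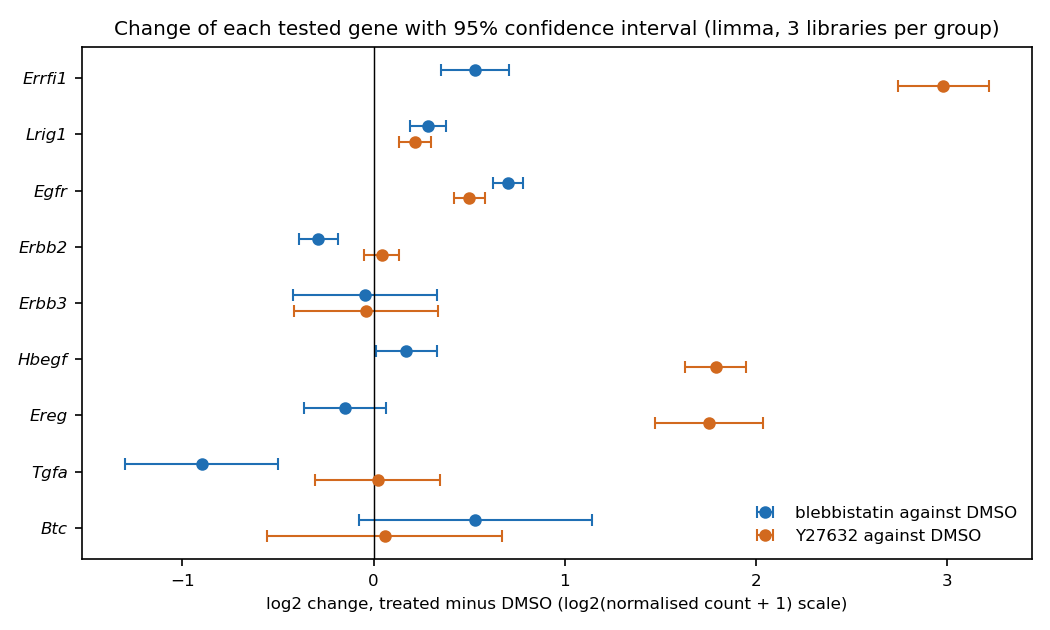
Log2 change against DMSO (x axis, on the log2(normalised count + 1) scale) of the 9 genes that could be tested, with 95% confidence intervals from limma, for blebbistatin and Y27632 with 3 libraries per group. Errfi1, Hbegf and Ereg with Y27632 lie farthest to the right, Egfr and Lrig1 lie to the right with both, and Erbb2 and Tgfa lie to the left with blebbistatin only; both comparisons use the same DMSO libraries.

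Counted over the 8 tested genes other than Errfi1, 4 were called at an adjusted p under 0.05 with blebbistatin, against 53% of the 14882 genes tested. Of these, Egfr and Lrig1 were higher, against 26.1% of all genes called higher, and Erbb2 and Tgfa lower, against 26.9% called lower. With Y27632, 4 of the 8 were called, against 35.9% of 14833 genes tested, and all 4 (Egfr, Lrig1, Hbegf and Ereg) were higher, against 18.1% of all genes called higher and 17.8% called lower. Between the treatments, 5 of the 8 were called, against 52.4% of 15262 genes, with Egfr higher with blebbistatin (26.5% of all genes) and Erbb2, Hbegf, Ereg and Tgfa lower with blebbistatin (25.8%). A called rise of at least 1 on the log2 scale with Y27632, as Hbegf and Ereg had, was found in 1.14% of all genes tested there. The median log2 change of the 8 genes was 0.06 with blebbistatin and 0.14 with Y27632, against 0.00 for all genes in both.

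The library Y27632 replicate 2 was the lowest of the 3 Y27632 libraries for Errfi1, Hbegf, Ereg and Areg. It was also the lowest for 98 of the 169 genes (58.0%) called higher by at least 1 with Y27632, against 34.3% of all genes tested. Without that library, the log2 change with Y27632 was 3.15 for Errfi1, 1.88 for Hbegf and 1.94 for Ereg, and the calls of Hbegf and Ereg held.

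The 5 genes whose profiles over the 9 libraries lay nearest to that of Errfi1 all had higher means with Y27632 than with DMSO or blebbistatin. Profiles were log2(CPM + 1) values minus their mean over the libraries, and the measure was the root mean square (RMS) difference, over 11445 other genes with a mean count of at least 100. The nearest gene was Nr4a1, an orphan nuclear receptor, at an RMS difference of 0.16, followed by its relative Nr4a3 at 0.27, the chemokine gene Cxcl1 at 0.36, Arc at 0.39 and the cyclooxygenase gene Ptgs2 at 0.42. Hbegf ranked 8 and Ereg 10 in this order, whereas Egfr ranked 1138, Erbb2 2128 and Lrig1 2593. The libraries share their treatments, so this order describes likeness over 3 groups of 3 libraries and no more.

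**Figure D3:**
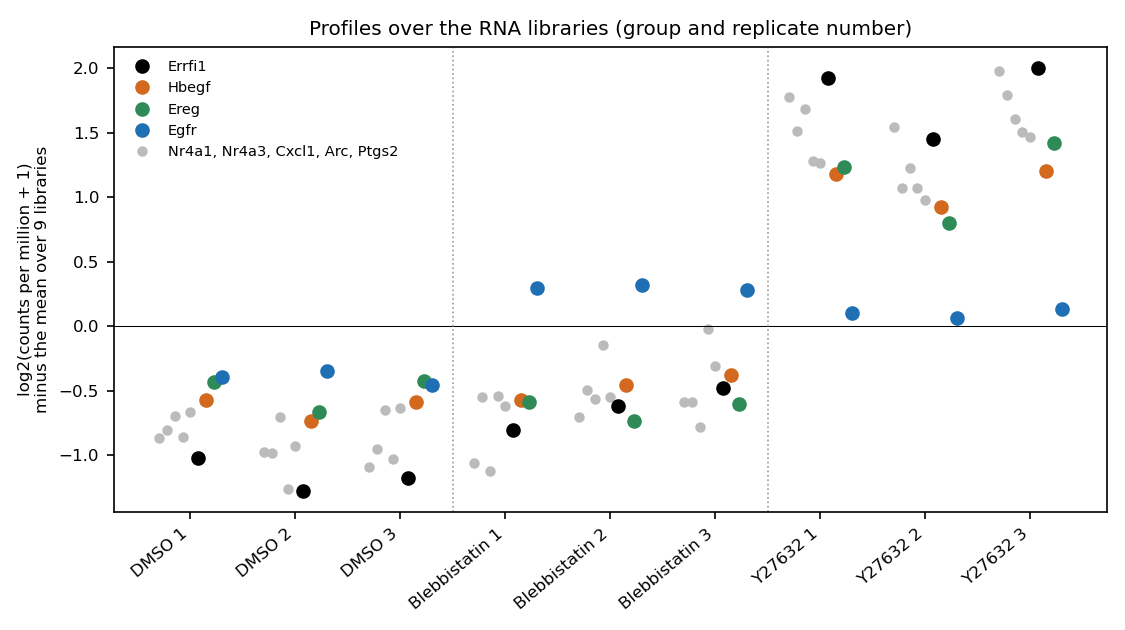
Log2(CPM + 1) minus the mean over the 9 libraries (y axis) for Errfi1, its 5 nearest genes (grey), Hbegf, Ereg and Egfr in each library (x axis, group and replicate number). Errfi1, Hbegf, Ereg and the grey genes are high in the Y27632 libraries, lowest of the 3 in replicate 2, while Egfr is highest with blebbistatin.

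Other parts of the pathway were counted over 45 genes in 5 lists, of which 42 could be tested. With blebbistatin 31 of the 42 were called, 14 higher and 17 lower, beside the 53% of all genes. With Y27632 23 were called, 18 higher and 5 lower, beside 35.9% of all genes. In the direct comparison 35 were called, 10 higher and 25 lower with blebbistatin, beside 52.4% of all genes. These lists were chosen with results of these data known.

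Of the 7 genes of the other ligands and the remaining receptor, 4 passed the filter on low values, and of these 4 Nrg1 alone was called. Nrg1, which encodes neuregulin 1, a ligand of Erbb3 and Erbb4, went from 20.2 ± 1.33 CPM (SD, n = 3) with DMSO to 6.45 ± 0.542 CPM with blebbistatin. It fell by 1.64 on the log2 scale with blebbistatin (limma adjusted p = 8.48e-09), and its change with Y27632 was -0.08 (limma adjusted p = 0.364). Egf, Nrg4 and the receptor Erbb4 were all below 1.2 CPM on average and did not pass the test. Of the 3 below the filter, the ligand Epgn had 8 reads with DMSO, 14 with blebbistatin and 42 with Y27632 and was called with Y27632 under both looser filters, Nrg2 had 12, 14 and 29, and Nrg3 had 0 reads in every library.

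All 4 genes of ligand shedding were called with blebbistatin, 2 higher and 2 lower, and 1 with Y27632, beside 53% and 35.9% of all genes. Adam17, the protease that releases several of these ligands, rose by 0.68 on the log2 scale with blebbistatin and by 0.23 with Y27632 (limma adjusted p = 5.10e-09 and 2.59e-04). Rhbdf2, a partner of Adam17 in its transport and activity, rose by 0.76 with blebbistatin (limma adjusted p = 4.26e-06) and had a change of 0.08 with Y27632 (limma adjusted p = 0.481). The 2 lower with blebbistatin, named after their values were seen, were Rhbdf1 and Adam10. Their log2 changes were -0.38 and -0.17 (limma adjusted p = 2.38e-06 and 0.00213).

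Of 9 genes of receptor turnover and other brakes, 2 were higher and 2 lower with blebbistatin, beside 26.1% and 26.9% of all genes. With Y27632, 6 were higher and 1 lower, beside 18.1% and 17.8% of all genes. Of the 6, the calls of Rnf41 and Socs4, named after their values were seen, were lost with DESeq2 and with the replicate block. Over 14 settings, the reported fit included, Rnf41 was called in 4, Socs4 in 7 and Ptpn1 in 12. Cblb, Usp8 and Socs5 were called in all 14. Cblb, a ubiquitin ligase that marks active receptors for breakdown, rose by 0.55 with blebbistatin and by 0.23 with Y27632 on the log2 scale (limma adjusted p = 2.81e-07 and 6.22e-04). Its relative Cbl, named after its values were seen, fell by 0.33 with blebbistatin (limma adjusted p = 6.32e-04). The change of Cbl with Y27632 was -0.09 (limma adjusted p = 0.277). The list's median log2 change was 0.00 with blebbistatin and 0.15 with Y27632.

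Of the 15 genes of the adaptors and the Ras-ERK cascade, 9 were lower and 3 higher with blebbistatin, beside 26.9% and 26.1% of all genes. Their median log2 change with blebbistatin was -0.12. With Y27632, 4 were higher and 3 lower, beside 18.1% and 17.8% of all genes, with a median of -0.02. Map2k1, which encodes the kinase MEK1, fell by 0.50 with blebbistatin and by 0.21 with Y27632 (limma adjusted p = 2.59e-06 and 0.00142).

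The 10 genes known to respond to ERK activity had the largest median change of the 5 lists with either treatment. With blebbistatin, 7 were higher and 3 lower, beside 26.1% and 26.9% of all genes, with a median log2 change of 0.56. With Y27632, 7 were higher and 1 lower, beside 18.1% and 17.8% of all genes, with a median of 0.74. Of the 3 lower with blebbistatin, the call of Epha4, named after its values were seen, was lost with DESeq2 and with the replicate block. It was also lost in 4 of the fits that left out 1 library. Spry4, a feedback inhibitor of receptor signalling, was at 12.2 ± 0.641 CPM with DMSO, 22.0 ± 1.45 CPM with blebbistatin and 44.0 ± 4.92 CPM with Y27632 (SD, n = 3 each). It rose by 0.85 and 1.85 on the log2 scale (limma adjusted p = 7.44e-07 and 3.33e-09), and its relative Spry2 rose by 0.43 and 1.29 (limma adjusted p = 1.59e-05 and 2.26e-08). Dusp6, a phosphatase that switches ERK off, rose by 0.89 with blebbistatin and 1.50 with Y27632 (limma adjusted p = 2.33e-06 and 3.95e-07). In the direct comparison Spry2, Spry4 and Dusp6 were higher with Y27632 (edgeR adjusted p = 1.25e-07, 7.26e-08 and 2.29e-04).

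Phlda1 rose by 1.53 with blebbistatin and by 1.84 with Y27632, and was also higher with Y27632 in the direct test (edgeR adjusted p = 0.0386). The other genes named from this list gave different patterns. Dusp4, a nuclear ERK phosphatase, rose by 1.37 with blebbistatin and 0.90 with Y27632, and was higher with blebbistatin in the direct test (edgeR adjusted p = 0.00184). Etv4, a transcription factor, rose by 0.70 with blebbistatin (limma adjusted p = 2.68e-05), and its change with Y27632 was -0.01 (limma adjusted p = 0.974). Ccnd1, the cyclin D1 gene, fell with both inhibitors, by 0.81 and 0.50 (limma adjusted p = 2.23e-09 and 2.35e-07). Epha2, an ephrin receptor gene, fell by 0.92 with blebbistatin and rose by 0.58 with Y27632 (limma adjusted p = 1.47e-07 and 3.21e-06), and differed between them (edgeR adjusted p = 2.97e-10).

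**Figure D4:**
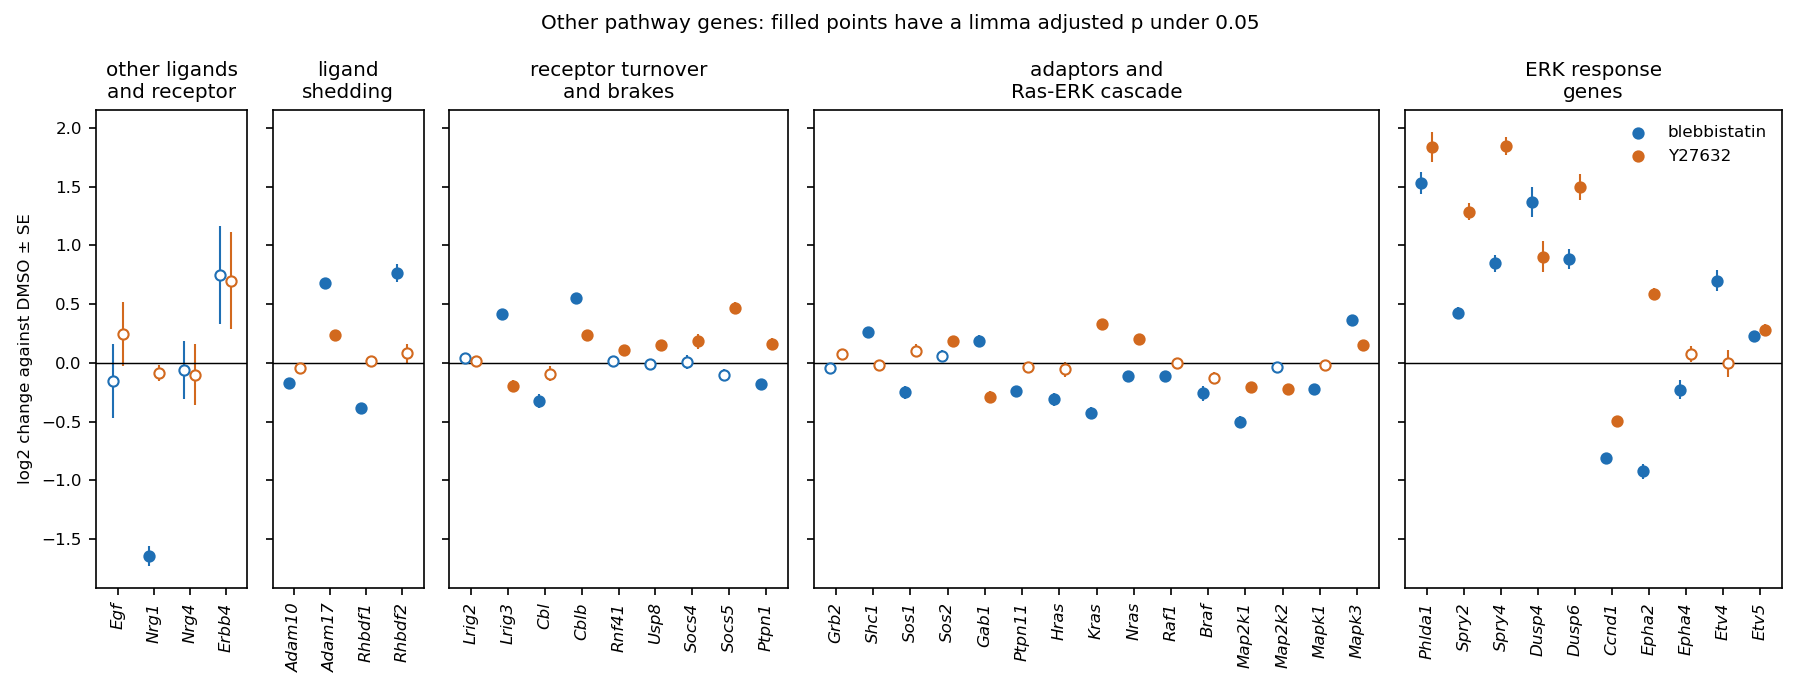
Log2 change against DMSO with its SE (y axis, log2(normalised count + 1) scale) of the 42 tested genes of the 5 pathway lists, with filled points for a limma adjusted p under 0.05 and open points otherwise, 3 libraries per group. Nrg1 is the lowest point with blebbistatin, and Spry4, Phlda1, Dusp6 and Spry2 are the highest with Y27632.

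Chromatin sites were available only as the authors' lists of sites past their thresholds, with group means and no value per library, so the site values below are the authors', with no SD and no test, and the depth behind them is unknown. A site's value is a log2 mean signal of the group and its change a log2 fold, and sites are given on build mm10. In the ATAC lists, 0 of 970 blebbistatin sites and 0 of 207 Y27632 sites were annotated to any of the 10 genes. These lists hold 1.54% and 0.335% of the sites tested. No list held a site annotated to Errfi1, Erbb2, Erbb3, Hbegf or Btc, and the nearest listed ATAC site to Errfi1 lay 1634 kb away for blebbistatin and 2395 kb away for Y27632.

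In the doxycycline experiment, 6 of 7613 listed sites that differed between doxycycline and neither drug belonged to the 10 genes, 5 higher and 1 lower, in a list that holds 9.36% of the sites tested (8.97% higher and 0.388% lower). Ereg had 3 of them in the authors' deposited list. The site at its promoter, chr5:91074062-91074962, centred 105 bases before the start, went from 8.2 to 9.46 (log2 fold 1.27, FDR 1.02e-08). A site in intron 1, chr5:91081643-91081792, went from 4.56 to 5.67 (1.11, FDR 9.55e-04). Another in intron 1, chr5:91083111-91083410, went from 6.4 to 7.58 (1.18, FDR 2.48e-07). All 3 Ereg sites were therefore higher with doxycycline.

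Egfr and Tgfa had 1 higher site each in the authors' doxycycline list. The Egfr site, chr11:16760057-16760228 in intron 1, went from 4.21 to 5.48 (log2 fold 1.27, FDR 0.00134). The Tgfa site, chr6:86195002-86195167 at the promoter, went from 4.55 to 5.56 (1.01, FDR 0.00235). The 1 lower site was intergenic, chr6:94806908-94807041, 106.8 kb upstream of the Lrig1 start, and went from 4.93 to 3.82 (-1.10, FDR 0.0327).

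When blebbistatin was added to doxycycline, 7 of 6346 listed sites belonged to the genes and all 7 were lower, in a list that holds 8.75% of the sites tested (8.73% lower). In the authors' deposited list, the Ereg intron 1 site chr5:91081643-91081792, which was higher with doxycycline, went from 5.67 to 4.18 (log2 fold -1.49, FDR 5.93e-06). The Egfr site chr11:16760057-16760228 went from 5.48 to 4.39 (-1.09, FDR 0.00152). At both, the mean with both drugs was near that with neither drug, 4.18 against 4.56 for Ereg and 4.39 against 4.21 for Egfr. Sites in both lists passed the authors' thresholds in each, where the smallest absolute log2 fold was 1.0. This nearness therefore follows in part from the selection. Both lists share the doxycycline group, so their folds at these sites are not independent.

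The Ereg promoter site, the Ereg intron 1 site chr5:91083111-91083410 and the Tgfa promoter site were not in the list of blebbistatin with doxycycline. Another Egfr site in intron 1, chr11:16829543-16829756, 77.4 kb from the start, went from 6.05 to 4.91 (-1.14, FDR 1.49e-04) in the authors' list. An intergenic site annotated to Areg, chr5:91207196-91207316, 67.7 kb from its start, went from 4.85 to 3.81 (-1.03, FDR 0.0111). Ereg, Areg and Btc lie within 328 kb on chromosome 5, so the nearest start decides which of them a site is assigned to.

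Lrig1 was the gene with sites in the list of blebbistatin without doxycycline, which held 2 of 1231 sites, both lower, in a list that holds 1.78% of the sites tested (1.77% lower). In the authors' deposited list, chr6:94743008-94743248, 43.0 kb upstream of the Lrig1 start, went from 6.34 to 5.33 (log2 fold -1.02, FDR 0.0191), and chr6:94776672-94776910, 76.6 kb upstream, from 5.8 to 4.55 (-1.25, FDR 0.00651). Both places were lower again when blebbistatin was added to doxycycline, by log2 folds of -1.02 (FDR 2.95e-06) and -1.0 (FDR 6.50e-04), beside a further site at chr6:94745520-94745639 (-1.25, FDR 3.35e-04). These 2 contrasts use different libraries.

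A site outside the rule lay beside the other end of Lrig1. In the ATAC list the site chr6:94603730-94604488, which the authors annotate to Mir7041 and to the end of the Lrig1 transcript, lay 41 bases beyond the RefSeq end of Lrig1 and went from 8.11 with DMSO to 6.35 with blebbistatin (log2 fold -1.76, FDR 0.00925). It was chosen after its values were seen. Overlapping sites in the authors' lists were chr6:94603830-94604488, higher with doxycycline (1.43, FDR 2.78e-10), and chr6:94604145-94604476, lower with blebbistatin without doxycycline (-1.14, FDR 0.00379). The list of blebbistatin with doxycycline and the Y27632 ATAC list held no overlapping site. Their nearest sites to Lrig1 lay 18.1 kb and 3767 kb away. The authors' motif column gives 1 TEAD-type match at the ATAC site, with the TEAD letters in capitals.
Site beside the end of Lrig1: aGGAATGcag

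**Figure D5:**
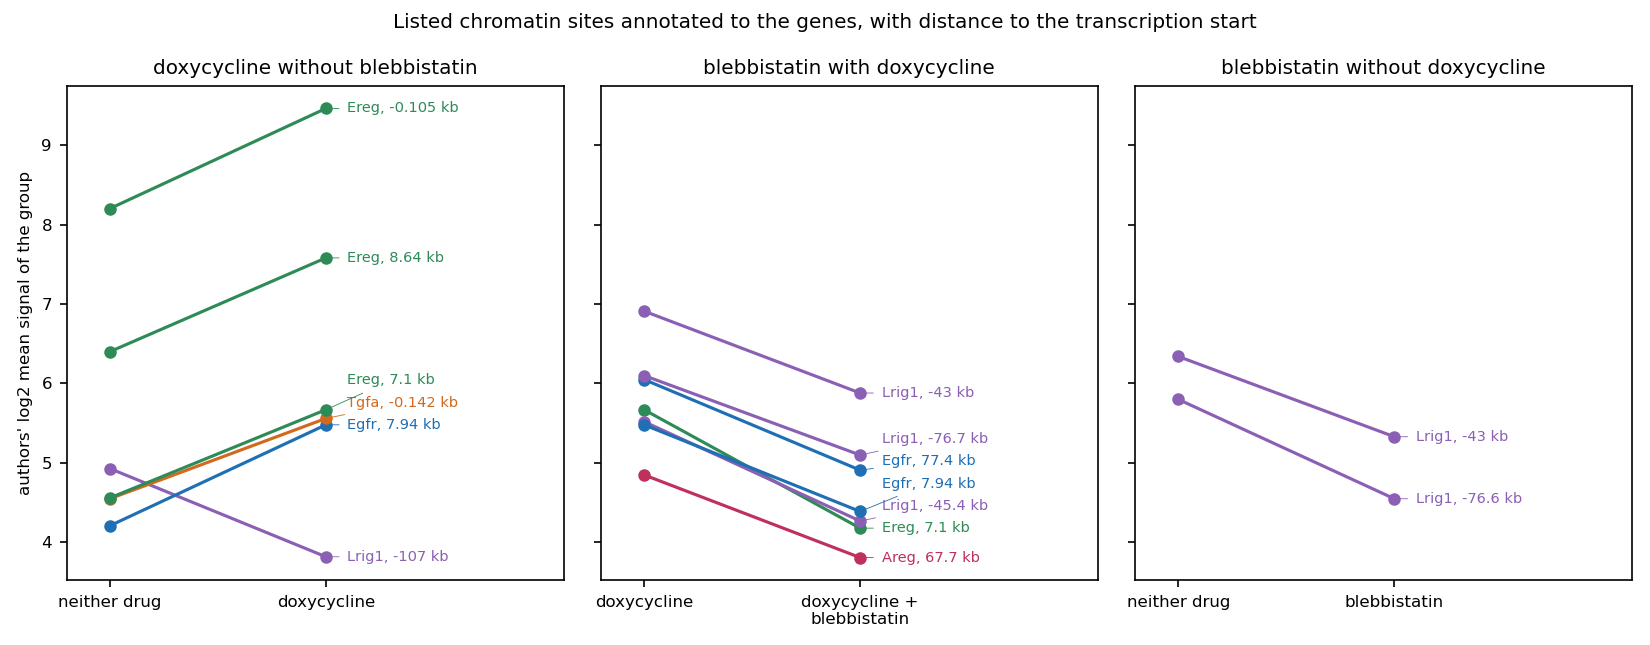
The authors' log2 mean signal (y axis) of the reference and treated group, joined by a line, at each listed site annotated to the genes in the 3 lists of the doxycycline experiment, with the gene and the distance to its transcription start in kb. Signal is higher with doxycycline at the Ereg, Egfr and Tgfa sites, lower at 1 Lrig1 site, and lower with blebbistatin at all sites of the other 2 lists; group means carry no error bars because the lists give none.

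RNA was not measured with doxycycline in the libraries used here, so the sites and the RNA levels of Ereg, Egfr and Tgfa come from different treatments. For blebbistatin, which is shared, Lrig1 had lower sites upstream without doxycycline while its RNA was higher (84.2 ± 4.54 against 68.9 ± 0.816 CPM, SD, n = 3). Overlapping sites about 70 kb beyond the end of Tgfa, annotated to Fam136a and so outside the rule, were also lower with blebbistatin. Their log2 folds were -1.5 in the ATAC list (FDR 0.0465) and -1.27 in the list without doxycycline (FDR 3.35e-04). Tgfa RNA was lower with blebbistatin. These sites were chosen after their values were seen, and a link to Tgfa was not tested. Egfr, whose RNA rose most with blebbistatin among the 9 tested genes, had no listed site in the ATAC list or in the list without doxycycline.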

How the data were processed

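RNA was measured in 9 libraries and chromatin in 21, grouped by the labels. Per the submitters' processing notes, the tools were HISAT2, Picard, featureCounts, DESeq2, Bowtie2, SAMtools, MACS2, DiffBind and HOMER, and the build was mm10. The notes give no versions, roles or order, and the annotation and strand setting are not given in the sources used here, so any split of reads between overlapping genes was not tested.

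The RNA tables that the authors deposited hold a signal per gene and library, a count divided by 1 size factor per library, worked out from the values: 100% of values above 0 were whole multiples of 1 step (tolerance 0.1 reads), and 0 DMSO reads differed between the tables over 35972 shared genes. There were 0 unlabelled sample columns. Per the file headers, the authors' site lists give a log2 mean per group, the log2 fold between groups, a p-value and an FDR for each site. The reference group of the doxycycline list carries the name of blebbistatin without doxycycline in its header. At 13 sites shared with another list it differed by a mean of -0.13 (SD 0.0044) from neither drug and of 1.12 (SD 0.184) from the group in the header, so it was read as neither drug. How many sites the authors tested was computed from each site's p-value, rank and FDR, taking the FDR as Benjamini-Hochberg.

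Limma 3.58.1 (R 4.3.3, trend option, no replicate block) was run per table on log2(normalised count + 1) for genes averaging 10 or more over the 6 libraries. This scale understates changes of low genes. Calls are at a Benjamini-Hochberg adjusted p under 0.05 over all genes tested. For blebbistatin against Y27632, recovered reads of all 9 libraries went into 1 edgeR 4.0.16 quasi-likelihood fit with TMM scaling. DESeq2 1.42.0 was an alternative. The fits were also run on simulated data in which far fewer genes changed than were called here. That run does not cover widespread change or changes as small as that of Lrig1. The same-numbered libraries of 2 groups did not deviate together, and every pair of replicates differed beyond sampling noise. The members and gene lists were chosen with earlier results of these data known. Named are all 10 genes, their sites, the 5 genes nearest to Errfi1, and pathway genes that are receptors or ligands or were called with an absolute log2 change of at least 0.5. Pathway genes outside this rule were named after their values were seen. Gene lengths were not used, so levels are not compared between genes.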

Additional observations from a re-analysis of the deposited data

How the results depend on the processing

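Egfr, Hbegf, Ereg, Tgfa, Erbb2 and Lrig1 kept their direction in every alternative run wherever the reported change passed the test. Errfi1 is left out here because the set was selected on it. Of 312 values of the other 8 genes over the alternatives (another pseudocount or filter, edgeR or DESeq2, a replicate block, each library left out), 299 kept direction and side of the threshold, 3 passed it newly and 10 changed sign, and the cause was not tested. Newly past it were Hbegf with blebbistatin (0.22, limma adjusted p = 0.0377, blebbistatin replicate 1 left out), Btc with blebbistatin (0.77, limma adjusted p = 0.0481, DMSO replicate 1 left out, against 0.22 and an adjusted p of 0.470 with DMSO replicate 2 left out) and Lrig1 between the treatments without blebbistatin replicate 3 (0.11, edgeR adjusted p = 0.0396). The sign changes were all in values that did not pass the test. With 1 library left out at a time, the log2 change of Erbb3 ran from -0.147 to 0.028 with blebbistatin, from -0.144 to 0.0498 with Y27632 and from -0.0938 to 0.0641 between the treatments. With Y27632, that of Tgfa ran from -0.103 to 0.0989 and that of Btc from -0.255 to 0.294, with Btc at -0.0236 by edgeR and -0.0145 by DESeq2. With each library left out, 4 to 5 of the genes were called with blebbistatin, 4 with Y27632 and 5 to 6 between the treatments. With a looser filter on low values Areg was called as well with Y27632 (5 genes) and between the treatments (6).

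The replicate numbers did not pair the libraries (correlations of same-numbered deviations -0.12 to 0.06). The fit with the replicate block called 7604 genes with blebbistatin, 4633 with Y27632 and 7759 between the treatments, against 7894, 5328 and 7990 without it, and 4, 4 and 5 of the 8 genes in both. Among the 42 tested pathway genes it called 30, 21 and 35, against 31, 23 and 35, with Epha4 (blebbistatin) and Rnf41 and Socs4 (Y27632) losing their calls. At an FDR under 0.01, the sites of the genes numbered 1 in place of 2 for blebbistatin without doxycycline, 5 in place of 6 for doxycycline and 6 in place of 7 for blebbistatin with doxycycline, where the lost site was that of Areg. Depth limits Areg, Erbb3, Btc and Tgfa most, and the depth behind the sites is unknown.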
